A study of Homo sapiens with 16 samples.

Results

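Gene expression in LNCaP cells given OSMI2, a small-molecule inhibitor of the enzyme OGT, was compared with that in LNCaP cells transfected with either of 2 siRNAs against the OGT transcript (siOGT1 and siOGT2), all under DMSO and without a CDK inhibitor. The comparison used 6 of the 16 libraries of the series, 2 with OSMI2, 2 with siOGT1 and 2 with siOGT2, chosen by their labels and not by any measured value, and every gene of the count table was a candidate. The 2 libraries with a scrambled siRNA (Scr) under DMSO served to place each gene, and the 8 libraries given 0.5 µM AT7519, which blocks cyclin-dependent kinases, served for 1 comparison at the end. LNCaP is an androgen-responsive prostate cancer line derived from a lymph node metastasis, and all groups are this 1 line. Per the labels, knockdown lasted 48 hours and DMSO or AT7519 was added for the last 4 hours before harvest. The dose and duration of OSMI2, and whether its cells also received a scrambled siRNA, were not stated in the labels. A difference between OSMI2 and the siRNAs therefore cannot be told apart from a difference in exposure time, in transfection or in the handling of the libraries. Nothing in the labels says that the 2 replicates of a group were grown apart, and p-values therefore cover only the scatter among these libraries, which may be technical.

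OGT adds a single sugar, N-acetylglucosamine, to serine and threonine residues of nuclear and cytosolic proteins, and OGA removes it. The donor, UDP-GlcNAc, is made by the hexosamine pathway, whose first enzyme is encoded by GFPT1. An inhibitor blocks the catalytic site and leaves the OGT transcript and protein in place, whereas an siRNA lowers the transcript and, with it, the whole protein, including its roles as a scaffold. Cells are known to adjust OGT and OGA transcripts to the level of the sugar modification.

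The 6 libraries held 48354151 to 147019364 counts, and 23830 of 60252 genes were tested. Luminal prostate markers were abundant in all groups, with a summed level of 5904 to 7034 CPM (counts scaled to a common TMM-adjusted library total) over 13 markers in the 8 DMSO libraries. All 10 leukocyte markers lay under 1 CPM in these libraries, CD3D and MS4A1 at 0 in each. Of the 10 basal markers, 6 lay under 1 CPM, KRT5 and TP63 among them. Others did not, with ITGA6 at 67.4 to 83.3 CPM and DST at 38.7 to 44.9. The 12 stromal markers, mostly FN1, summed to 315 to 339 CPM in siOGT1, 392 to 467 in siOGT2, 514 to 595 in Scr and 567 to 611 in OSMI2, while COL1A2, COL6A3, DCN and THY1 lay at or near 0 throughout. In bulk RNA, fewer cells of a type and less RNA per cell cannot be told apart.

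The largest difference between OSMI2 and the siRNAs among well-expressed genes was in OGT itself. OGT (ENSG00000147162) stood at 349 and 336 CPM in the OSMI2 libraries, 20.7 and 14.6 in siOGT1, 36 and 29.8 in siOGT2, with 274 and 263 in Scr. Both OSMI2 libraries were above every other DMSO library. The level in OSMI2 was 14.1-fold that of the mean of the 2 siRNAs (log2 difference 3.82, SE 0.11, adjusted p = 5.14e-13), and the difference was larger against siOGT1 (4.26) than against siOGT2 (3.38). Against Scr the OSMI2 value of 0.35 (SE 0.13) did not pass the test (adjusted p = 0.168). OGA (ENSG00000198408) stood at 226 and 238 CPM in OSMI2, 58.8 and 35.5 in siOGT1, 62.3 and 40.7 in siOGT2, with 331 and 289 in Scr. It was 4.69-fold higher in OSMI2 than in the siRNAs (2.23, SE 0.18, adjusted p = 2.05e-05), and the 2 OSMI2 libraries were between the siRNA and the Scr libraries. GFPT1 was the third gene of the pathway to pass, at 193 and 198 CPM in OSMI2, 90.8 and 96 in siOGT1, 164 and 181 in siOGT2, with 153 and 169.9 in Scr (0.62, SE 0.069, adjusted p = 6.69e-06). Its difference was 1.06 against siOGT1 and 0.18 against siOGT2, and only the first passed (adjusted p = 1.16e-07 and 0.206). Of the 14 pathway genes, 3 were higher in OSMI2 and the other 11 did not pass, among them PGM3 (0.17, SE 0.071), UAP1 (0.20, SE 0.074) and NAGK (-0.018, SE 0.075). Adjusted p-values here and below are from edgeR's quasi-likelihood test, two-sided, with Benjamini-Hochberg adjustment over all 23830 genes, 2 libraries per group and 8 residual degrees of freedom, unless another test is named.

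**Figure D1:**
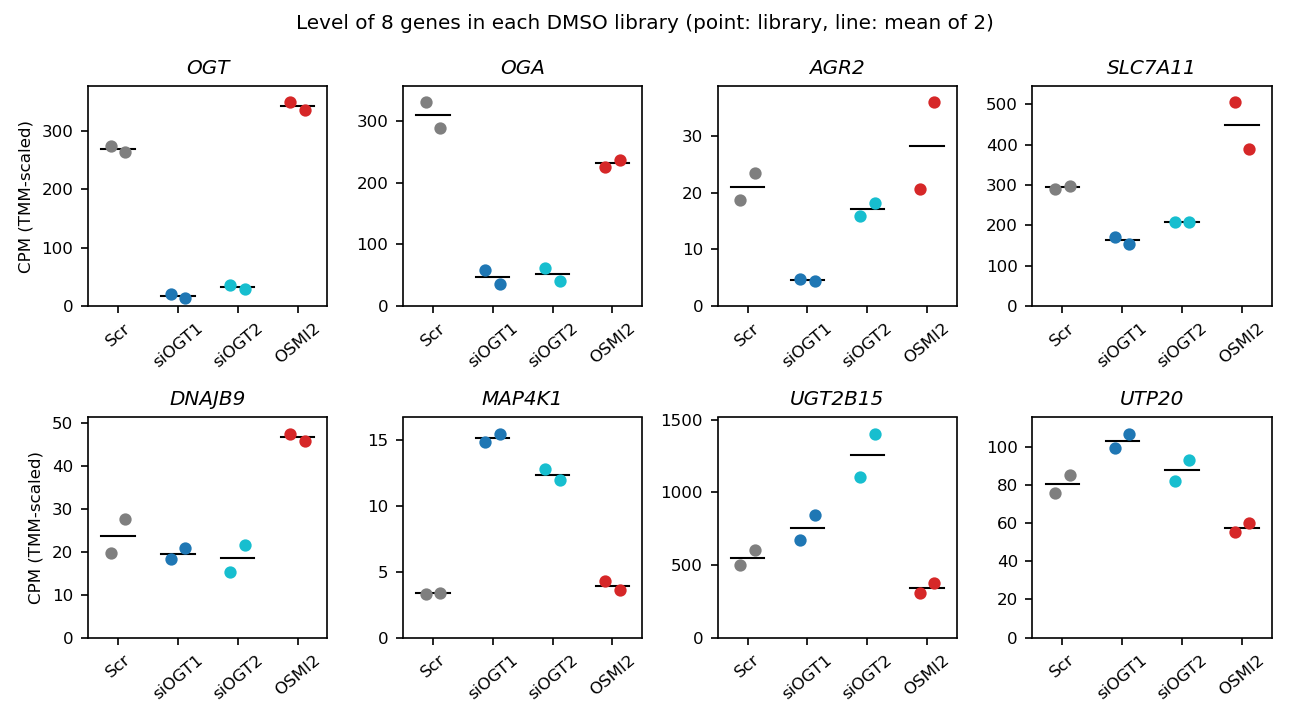
Level in CPM (vertical axes, starting at 0) of 8 genes in each DMSO library by arm. Points are libraries and lines are means of 2. OGT and OGA are far lower in the siRNA arms than in Scr and OSMI2, DNAJB9 is highest and UTP20 lowest in OSMI2, and MAP4K1 is high in both siRNA arms and low in Scr and OSMI2.

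Across all genes, 3955 of 23830 (16.6%) differed between OSMI2 and the siRNAs, 1644 (6.9%) higher in OSMI2 and 2311 (9.7%) lower. Of these, 730 were at least 1.5-fold higher and 535 at least 1.5-fold lower, 279 and 191 at least 2-fold, and 53 and 42 at least 4-fold. All other called genes differed by less than 1.5-fold. In 3792 of the called genes (95.9%) the 2 OSMI2 libraries lay beyond all 4 siRNA libraries. Over all tested genes, both OSMI2 libraries were above the 4 siRNA libraries in 18.7% and below them in 20.9%. Among the 10295 genes with a mean log2 CPM of 3 or more, the 95% interval of the difference lay within 2-fold either way in 98.4% and within 0.5 log2 either way in 74.4%. Against siOGT1 alone 4150 genes (17.4%) were called and against siOGT2 alone 1631 (6.84%, of which 2.52% of tested genes higher and 4.32% lower). The 2 siRNAs differed from each other in 433 (1.82%), with siOGT1 lower in 265 (1.11%). Of the 3955 called genes, 3926 had the same direction against each siRNA and 1307 were called against each. The shares of 6.9% higher and 9.7% lower are the background for the list counts below.

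The count depended on single libraries. It was 1813 without OSMI2 replicate 1, 1405 without OSMI2 replicate 2, 2470 without siOGT1 replicate 2 and 2561 without siOGT2 replicate 2. With siOGT1 and siOGT2 averaged within a replicate number and a limma-trend test, chosen after seeing the data because same-numbered siRNA libraries deviated together (r = 0.63 across genes), it was 2661. The share of calls that were higher was 41.6%, against 52.1% with upper-quartile scaling (2064 higher and 1894 lower) and 53.8% with library size only (2119 and 1819).

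The Scr libraries placed the called genes in several classes. Each class but the last asks that both OSMI2 libraries lie beyond all 4 siRNA libraries. That held for 95.9% of called genes, but over all tested genes for 18.7% above and 20.9% below. Larger shares among called genes than among all tested genes therefore come with the definition, and no enrichment of a class can be read from them. In 1017 of them (25.7%, against 5.52% of all tested genes) the Scr libraries lay between OSMI2 and the siRNAs, so that the treated arms lay on opposite sides of it. In 971 (24.6%, against 9.4%) OSMI2 overlapped the Scr range and all siRNA libraries lay on 1 side of it, as for C9orf43, AGR2, GRIN3A and H3C6. In 1363 (34.5%, against 15.1%) the siRNA libraries overlapped Scr and OSMI2 lay apart, and in 311 (7.86%, against 5.03%) OSMI2 and the siRNAs lay on the same side of Scr. The other 293 (7.41%, against 64.9%) had none of these patterns. For reference, 710 genes (2.98%) were called between OSMI2 and Scr and 2336 (9.8%) between both siRNAs and Scr, from comparisons that share the Scr libraries.

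After OGT and OGA, the largest rises named by the rule were led by AGR2, BEST1, GRIN3A and H3C6. AGR2, a protein disulfide isomerase of secretory epithelia, stood at 20.6 and 35.9 CPM in OSMI2, 4.85 and 4.49 in siOGT1, 15.8 and 18.2 in siOGT2, with 18.6 and 23.4 in Scr (1.66, SE 0.20, adjusted p = 1.68e-04). Most of its difference was against siOGT1 (2.59, against 0.73 for siOGT2), and the siRNAs themselves differed (adjusted p = 0.00179). BEST1, a calcium-activated chloride channel gene that shares exons with FTH1 and is uncertain for that reason, stood at 24.6 and 19 CPM in OSMI2, 7.07 and 5.7 in siOGT1, 7.93 and 10.5 in siOGT2, with 10.8 and 10.5 in Scr (1.5, SE 0.14, adjusted p = 2.04e-06). GRIN3A, an NMDA receptor subunit gene, was at 14.7 and 18.3 CPM in OSMI2 against 6.09 and 6.74 in siOGT1 and 5.59 and 5.74 in siOGT2 (1.45, SE 0.14, adjusted p = 1.87e-06), and Scr at 11.4 and 16.4 overlapped OSMI2. H3C6, a histone H3 gene, was at 15.4 and 19.8 CPM in OSMI2, 6.32 and 6.14 in siOGT1, 6.97 and 7.15 in siOGT2, with 15.6 and 15.5 in Scr (1.41, SE 0.13, adjusted p = 1.91e-06). The same order, siRNAs low and OSMI2 at or above Scr, was seen for TTC39B (1.22, SE 0.10), the cyclin gene CCNG2 (1.12, SE 0.11), the nucleosome assembly gene TSPYL2 (1.22, SE 0.085), the GABA receptor gene GABBR1 (1.25, SE 0.22) and the transporter gene SLC22A31 (1.1, SE 0.15). NIBAN1, a regulator of translation under stress, differed from these in that Scr overlapped the siRNAs: it was at 41.3 and 26.4 CPM in OSMI2 and 18 and 15.9 in Scr, with 14.4 and 9.78 in siOGT1 and 17.3 and 15.3 in siOGT2 (1.27, SE 0.20, adjusted p = 8.26e-04).

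Among the falls named by the rule, which takes well-expressed protein-coding genes, the largest was in MAP4K1, a kinase gene best known from blood cells. It stood at 4.27 and 3.62 CPM in OSMI2, 14.9 and 15.5 in siOGT1, 12.8 and 12 in siOGT2, with 3.33 and 3.41 in Scr, so that the siRNA libraries were high and the other 4 low (-1.8, SE 0.16, adjusted p = 7.24e-07). FBXO15, a substrate receptor of a ubiquitin ligase, had the same pattern with 6.4 and 5.83 CPM in OSMI2, 20.3 and 23.9 in siOGT1 and 12.7 and 17.1 in siOGT2, with 5.26 and 4.93 in Scr (-1.57, SE 0.13, adjusted p = 6.53e-07). So had APOLD1, which overlaps DDX47 (-1.29, SE 0.15), and C9orf43, which overlaps POLE3 (-1.23, SE 0.16). BRDT, a testis bromodomain gene, stood at 9.03 and 8.39 CPM in OSMI2, below 24.6 and 33.2 in siOGT1, 16.5 and 30.3 in siOGT2, with 15.1 and 21.1 in Scr (-1.58, SE 0.25, adjusted p = 9.61e-04). SLC1A3, a glutamate transporter gene, was likewise lowest in OSMI2 (3.38 and 5.97 CPM, with 7.68 and 8.62 in Scr, 11.8 and 14.6 in siOGT1 and 7.99 and 11.2 in siOGT2, -1.26, SE 0.20, adjusted p = 2.86e-04). SERPINI1, a serine protease inhibitor gene, stood at 10.4 and 9.41 CPM in OSMI2, 13.4 and 11.5 in Scr and 30.5 and 30.6 in siOGT1 and 25.3 and 24.2 in siOGT2 (-1.47, SE 0.14, adjusted p = 1.29e-06), with Scr between the other arms. PRKAR1B, a regulatory subunit of protein kinase A that overlaps DNAAF5 (-1.34, SE 0.094), and DDC, which encodes aromatic amino acid decarboxylase (-1.08, SE 0.11), were also lower in OSMI2, as were the actin-bundling gene PLS1 (-1.18, SE 0.11), EFHC2 (-1.27, SE 0.16) and SLC22A10 (-1.09, SE 0.14). ZPLD1 (-1.2, SE 0.29) lost its call without either OSMI2 library (adjusted p = 0.0877 and 0.152).

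**Figure D2:**
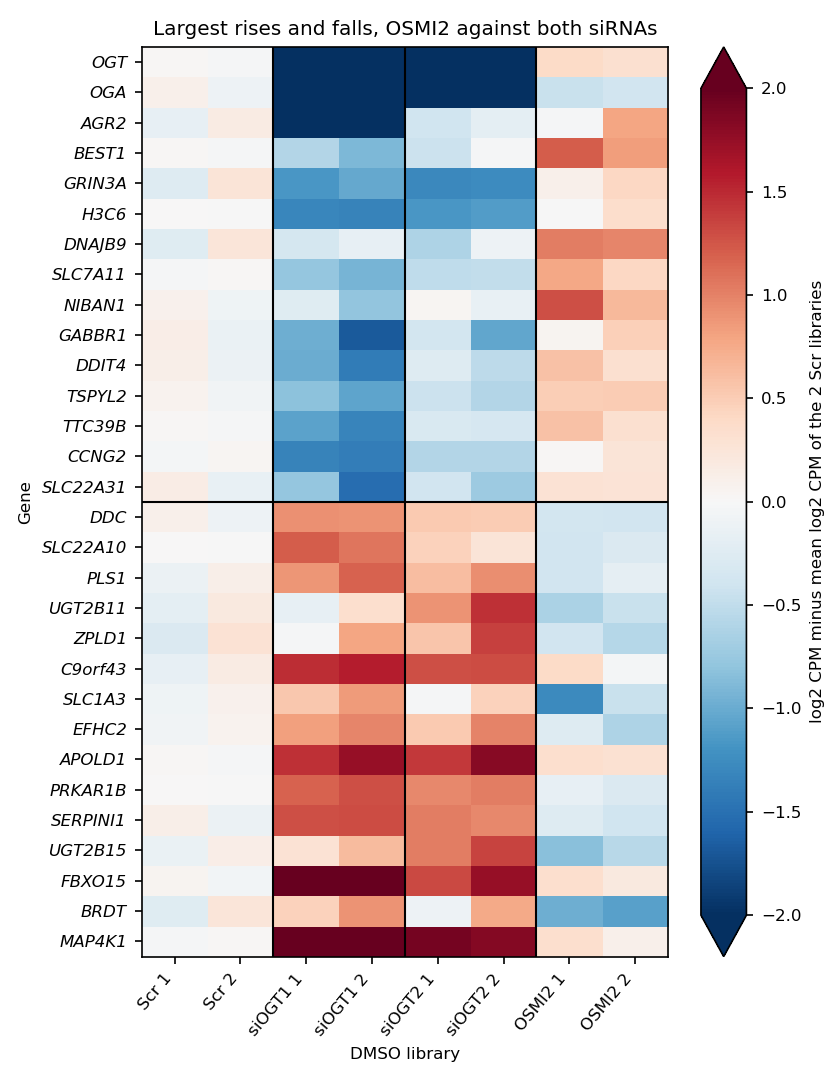
Log2 CPM of the 15 largest rises and 15 largest falls (rows) in the 8 DMSO libraries (columns), each relative to the mean of the 2 Scr libraries, with the colour scale clipped at 2 log2 either way. Within the rises the siRNA columns are mostly blue and the OSMI2 columns pale or red, and within the falls the siRNA columns are mostly red and the OSMI2 columns pale or blue.

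Genes of the amino acid response were higher in OSMI2. ATF4 is a transcription factor whose translation increases under amino acid shortage and endoplasmic reticulum stress, and it raises genes for amino acid transport and synthesis. Of 33 tested members of its list, 19 were higher in OSMI2 and 0 lower, with a median of 0.42, against 6.9% higher and a median of 0.011 over all tested genes. Against Scr the median of the list was 0.20 for OSMI2 and -0.22 for the siRNAs. SLC7A11, the cystine transporter gene, stood at 505 and 391 CPM in OSMI2, 172 and 154 in siOGT1, 207 and 209.6 in siOGT2, with 289.9 and 299 in Scr (1.28, SE 0.12, adjusted p = 1.26e-05), the siRNA libraries lowest and the OSMI2 libraries highest. It shares exons with SLC7A11-AS1. ATF3, a transcription factor gene downstream of ATF4, was at 63.7 and 51.4 CPM in OSMI2, 25.9 and 25.6 in siOGT1, 40.6 and 37.3 in siOGT2, with 43.2 and 40.5 in Scr (0.86, SE 0.090, adjusted p = 4.17e-06). PCK2, the mitochondrial phosphoenolpyruvate carboxykinase gene, was at 305 and 246 CPM in OSMI2, 156 and 139 in siOGT1 and 168 and 146 in siOGT2, with 205 and 192 in Scr (0.86, SE 0.10, adjusted p = 2.08e-05). For SLC7A11 and PCK2 the Scr libraries lay between the siRNAs and OSMI2, and for ATF3 they overlapped siOGT2.

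Transport and synthesis genes moved the same way in smaller steps. The neutral amino acid transporter gene SLC7A5 (1.0, SE 0.16, adjusted p = 2.94e-04), its partner chain SLC3A2 (0.44, SE 0.098) and the arginine transporter gene SLC7A1 (0.42, SE 0.082) were higher, as were asparagine synthetase ASNS (0.53, SE 0.084, adjusted p = 2.64e-04), the serine pathway genes PHGDH (0.51, SE 0.075), PSAT1 (0.26, SE 0.073) and SHMT2 (0.35, SE 0.065), the folate enzyme gene MTHFD2 (0.60, SE 0.14) and the pseudokinase gene TRIB3 (0.71, SE 0.11, adjusted p = 3.68e-04). ATF4 itself was 0.44 higher (SE 0.083, adjusted p = 0.00108). SLC38A2, a glutamine transporter gene, was at 587 and 597 CPM in OSMI2, 325 and 262 in siOGT1, 541 and 473 in siOGT2, with 608 and 553 in Scr (0.62, SE 0.080, adjusted p = 3.60e-05). Its difference was mostly against siOGT1 (1.01, against 0.22 for siOGT2), and the siRNAs differed (adjusted p = 6.76e-05). The stress-induced mTOR inhibitor gene DDIT4 had a large but variable difference (1.24, SE 0.29, adjusted p = 0.0182) that was lost without OSMI2 replicate 1 (adjusted p = 0.121) or replicate 2 (0.0684), and without replicate 2 of siOGT1 (0.0642) or siOGT2 (0.0641). Without OSMI2 replicate 1, 8 of the 33 members were called and the list median was 0.22, and without replicate 2, 20 were called with a median of 0.53, so the list stood further above the siRNAs in OSMI2 replicate 1 than in replicate 2.

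Genes of the endoplasmic reticulum were higher in part. The unfolded protein response raises chaperones, degradation factors and secretory machinery of this compartment. Of 20 listed genes, 9 were higher in OSMI2 and 0 lower, with a median of 0.20. DNAJB9, a co-chaperone gene, stood at 47.5 and 45.9 CPM in OSMI2, 18.3 and 20.9 in siOGT1, 15.2 and 21.7 in siOGT2, with 19.7 and 27.6 in Scr (1.3, SE 0.13, adjusted p = 3.89e-06), and only the OSMI2 libraries stood apart in this list member. It overlaps PNPLA8 and THAP5. SEC24D, a coat protein gene of vesicles leaving this compartment, was at 73.9 and 82.4 CPM in OSMI2, 35.8 and 40.8 in siOGT1 and 45.9 and 53.1 in siOGT2, with 46.3 and 53.4 in Scr (0.85, SE 0.083, adjusted p = 2.86e-06). HERPUD1, a degradation factor gene, was at 142 and 126 CPM in OSMI2 and 109 and 122 in Scr, against 58.4 and 61.2 in siOGT1 and 73.3 and 85.3 in siOGT2 (0.96, SE 0.11, adjusted p = 8.08e-06). PDIA4 (0.41, SE 0.077), HYOU1 (0.31, SE 0.062), CANX (0.26, SE 0.075) and DNAJC3 (0.54, SE 0.083) also passed. The main luminal chaperone genes did not, with values of 0.071 for HSPA5 (SE 0.070, adjusted p = 0.561), -0.20 for HSP90B1 (SE 0.078) and -0.10 for CALR (SE 0.084), nor did XBP1 (0.56, SE 0.19, adjusted p = 0.0685). Without OSMI2 replicate 2, 4 members of this list were called.

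Promoters of the ATF4 list were searched for the C/EBP-ATF response element, written here as TGATGNAA and read on both strands, since its members moved together. Promoter sequences were those of RefSeq on GRCh38.p14, 250 bases before to 50 after each listed start, and 28 of the 33 genes had one. The letters were found in 5 of 16 called genes and 2 of 12 others, against 2.92% of 11690 tested protein-coding genes. Because the list holds genes known to respond to ATF4, a share above that of all genes comes with its choice. Any link of the letters to the higher level in OSMI2 was not tested. Of the endoplasmic reticulum list, 1 of 8 called genes, HERPUD1, and 0 of 10 others held the letters. The 60-base windows below show 4 of these matches in the gene's own direction, with the match in capitals. A match is a description of the letters and not evidence of binding.
ATF3, chr1:212565190-212565249, plus strand: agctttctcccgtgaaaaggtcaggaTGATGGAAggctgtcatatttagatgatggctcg
ASNS, chr7:97872443-97872502, minus strand: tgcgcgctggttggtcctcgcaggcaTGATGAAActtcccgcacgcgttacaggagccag
GARS1, chr7:30594818-30594877, plus strand: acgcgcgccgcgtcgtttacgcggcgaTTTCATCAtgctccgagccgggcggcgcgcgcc
HERPUD1, chr16:56931940-56931999, plus strand: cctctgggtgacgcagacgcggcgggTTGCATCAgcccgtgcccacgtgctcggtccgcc

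MYC target genes were lower in OSMI2. The list holds nucleolar, ribosome assembly and nucleotide or polyamine synthesis genes that MYC is known to bind. Of 38 tested members, 26 were lower and 0 higher, with a median of -0.31, against 9.7% lower over all tested genes. The median against Scr was -0.39 for OSMI2 and -0.070 for the siRNAs. UTP20, a ribosome assembly factor gene, stood at 55.1 and 59.97 CPM in OSMI2, 99.3 and 107 in siOGT1, 82 and 93.2 in siOGT2, with 75.7 and 85.2 in Scr (-0.72, SE 0.097, adjusted p = 5.28e-05), lowest in the 2 OSMI2 libraries. SRM, the spermidine synthase gene, was at 74.1 and 73.8 CPM in OSMI2, 103 and 126 in siOGT1 and 97.3 and 107 in siOGT2, with 93.8 and 102 in Scr (-0.55, SE 0.080, adjusted p = 1.23e-04). The assembly factor genes NOP16 (-0.58, SE 0.10), LYAR (-0.56, SE 0.11), RRS1 (-0.45, SE 0.10) and NOP58 (-0.36, SE 0.077), the cap-binding factor gene EIF4E (-0.45, SE 0.083) and the purine synthesis gene PPAT (-0.37, SE 0.075) were also lower. MYC itself had a value of 0.19 (SE 0.068, adjusted p = 0.0628). With library size only, 17 members of the list were lower, and 13 and 10 were lower without OSMI2 replicate 1 and replicate 2, with medians of -0.29 and -0.31.

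The E-box CACGTG, which reads the same on both strands and is bound by MYC and by related factors, was present in the promoters of 15 of 23 called members and 5 of 10 others with a promoter sequence. It was present in 12.1% of the 11690 tested protein-coding genes. Of the heat shock list described below, 2 of 14 called genes, HSPE1 and HSPD1, and 1 of 13 others held it. Of the oxidative phosphorylation list, 0 of 9 called genes and 2 of 28 others held it. Because the MYC list holds genes that MYC is known to bind, a share above that of all genes comes with its choice. Any link of the E-box to the lower level in OSMI2 was not tested. HSPE1 and HSPD1 lie head to head, and their windows below overlap and hold the same E-box. The 5 windows are shown in the same form, with the E-box in capitals.
UTP20, chr12:101280045-101280104, plus strand: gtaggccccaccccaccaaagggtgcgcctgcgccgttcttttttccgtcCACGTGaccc
SRM, chr1:11060185-11060244, minus strand: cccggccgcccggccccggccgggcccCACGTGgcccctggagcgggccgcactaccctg
LYAR, chr4:4290053-4290112, minus strand: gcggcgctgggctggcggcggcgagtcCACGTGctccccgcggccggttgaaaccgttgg
HSPE1, chr2:197500319-197500378, plus strand: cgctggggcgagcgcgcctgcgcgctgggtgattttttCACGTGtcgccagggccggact
HSPD1, chr2:197500330-197500389, minus strand: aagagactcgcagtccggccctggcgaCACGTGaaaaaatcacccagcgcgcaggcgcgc

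Chaperones of the cytosol and mitochondria were lower as well. Heat shock proteins and the chaperonin complex fold newly made and damaged proteins, and many are under the control of HSF1. Of 29 listed genes, 15 were lower in OSMI2 and 0 higher, with a median of -0.26, against 9.7% lower over all tested genes. HSPB1, a small heat shock protein gene, stood at 140.5 and 183 CPM in OSMI2, 229.8 and 296 in siOGT1, 327 and 359.9 in siOGT2, with 216 and 197 in Scr (-0.89, SE 0.10, adjusted p = 1.85e-05). HSPA4, which encodes an exchange factor of HSP70, was at 292 and 302 CPM in OSMI2, 419 and 453 in siOGT1 and 419 and 465 in siOGT2, with 374 and 422 in Scr (-0.56, SE 0.070, adjusted p = 2.33e-05), and so the OSMI2 libraries alone were low. TCP1, a chaperonin subunit gene that overlaps ACAT2, was at 419.7 and 402 CPM in OSMI2 against 618 and 666 in siOGT1, 570.3 and 612 in siOGT2, with 572 and 667 in Scr (-0.59, SE 0.070, adjusted p = 1.69e-05). The mitochondrial pair HSPE1 (-0.65, SE 0.091, adjusted p = 7.62e-05) and HSPD1 (-0.43, SE 0.072, adjusted p = 4.06e-04), which overlap each other and are also on the MYC list, and the HSP90 gene HSP90AA1 (-0.60, SE 0.10, adjusted p = 6.24e-04) were lower too. The inducible gene HSPA1A (0.13, SE 0.13), the constitutive gene HSPA8 (-0.035, SE 0.11) and HSF1 itself (-0.096, SE 0.076) did not pass. Without OSMI2 replicate 1, 10 members were lower, and without replicate 2, 11.

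All 6 listed UGT2B genes were lower in OSMI2 than in the siRNAs. Some of these genes, UGT2B15 and UGT2B17 among them, encode enzymes that attach glucuronic acid to androgens and so inactivate them. In LNCaP cells UGT2B15 and UGT2B17 are known to be repressed by androgen. UGT2B15 stood at 307 and 374 CPM in OSMI2, 669 and 845 in siOGT1, 1109 and 1404 in siOGT2, with 499 and 600.2 in Scr (-1.52, SE 0.12, adjusted p = 1.13e-06), so that Scr lay between OSMI2 and the siRNAs. UGT2B17 was at 563 and 625 CPM in OSMI2, 738 and 799 in siOGT1, 981 and 1101 in siOGT2, with 635 and 668 in Scr (-0.59, SE 0.087, adjusted p = 1.27e-04). UGT2B11 was at 67.4 and 76.2 CPM in OSMI2, 93.2 and 132 in siOGT1, 195 and 288 in siOGT2, with 90.9 and 119 in Scr (-1.2, SE 0.17, adjusted p = 4.96e-04). The values for UGT2B7, UGT2B10 and UGT2B28 were -1.1 (SE 0.26), -0.87 (SE 0.16) and -0.87 (SE 0.17). The 2 siRNAs did not have the same level of this family: siOGT2 was above siOGT1 for UGT2B15 (adjusted p = 0.00535), UGT2B11 (0.00805), UGT2B10 (0.00154), UGT2B17 (0.0192) and UGT2B28 (0.0172). Against siOGT1 alone, UGT2B10 (-0.27, adjusted p = 0.36) and UGT2B28 (-0.41, adjusted p = 0.168) did not pass. The family is closely related: 27.5% of the 50-base stretches of UGT2B15 transcripts occur in UGT2B17 too. How the counting treated such reads was not given, so single members are uncertain. UGT2B10 and UGT2B28 lost their calls in a fit of the DMSO libraries only (adjusted p = 0.0524 and 0.0575), UGT2B11 in a fit of the compared groups only (0.0608) and UGT2B7 without OSMI2 replicate 2 (0.0937).

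**Figure D3:**
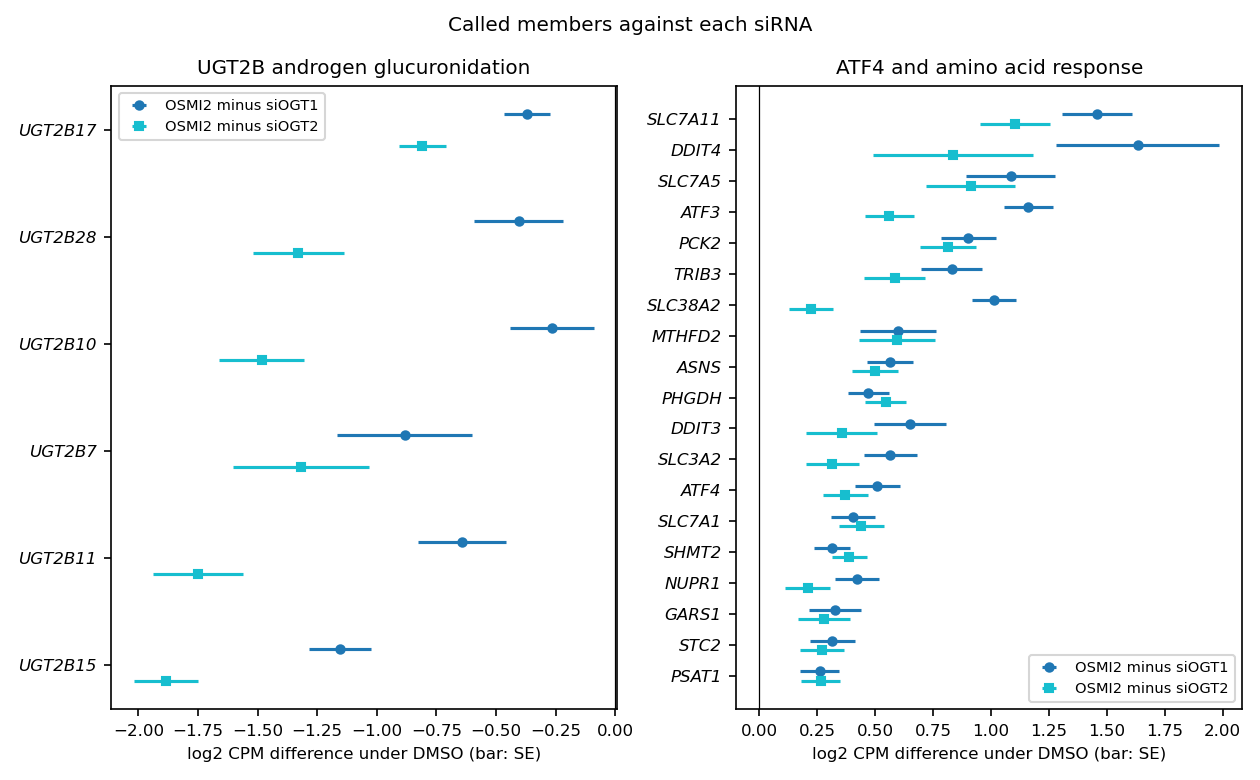
Log2 CPM difference of OSMI2 from siOGT1 (circles) and from siOGT2 (squares) for the called members of the UGT2B and ATF4 lists, with bars of 1 SE. The 2 differences of a gene share the OSMI2 libraries. All points of the UGT2B genes are below 0 and further below for siOGT2, and all points of the ATF4 genes are above 0.

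Androgen-regulated genes were mixed. Of 36 tested genes, 9 were higher in OSMI2 and 2 lower, against 6.9% and 9.7% over all tested genes. The median was 0.082. The counts were 5 and 0 without OSMI2 replicate 1, 3 and 1 without OSMI2 replicate 2, and 4 and 2 without replicate 1 of either siRNA. KLK4, a kallikrein protease gene, stood at 150.2 and 151 CPM in OSMI2, 100.03 and 99.4 in siOGT1, 91.5 and 92.9 in siOGT2, with 120.2 and 129 in Scr (0.65, SE 0.070, adjusted p = 5.67e-06). ADAM7 was at 10.2 and 7.95 CPM in OSMI2 and 8.01 and 10.1 in Scr, against 3.11 and 3.91 in siOGT1 and 3.5 and 5.32 in siOGT2 (1.21, SE 0.18, adjusted p = 1.10e-04), and it overlaps ADAM7-AS2. KLK3, which encodes prostate-specific antigen, did not lie on 1 side: it was at 1127 and 1400.1 CPM in OSMI2, 1286 and 1302 in siOGT1 and 785 and 801 in siOGT2, a difference of -0.034 from siOGT1 and 0.67 from siOGT2. Its pooled call (0.32, SE 0.093, adjusted p = 0.0228) was lost without OSMI2 replicate 2 (adjusted p = 0.491), without any one of the siRNA libraries (0.0512 to 0.056) and with the siRNAs averaged by replicate number (0.124). TMPRSS2 (0.14, SE 0.097) and FKBP5 (0.052, SE 0.075) did not pass. FOLH1, which encodes prostate-specific membrane antigen, was lower in OSMI2 than in the siRNAs (-0.31, SE 0.076, adjusted p = 0.00679). It was at 1246 and 1315 CPM in OSMI2, 1577 and 1581 in siOGT1 and 1606 and 1608 in siOGT2. Scr, at 1388 and 1308 CPM, overlapped OSMI2. The call was lost without OSMI2 replicate 1, where the difference was -0.28.

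Cholesterol genes also moved in both directions. Of 25, 7 were higher and 3 lower, with a median of 0.10. Without OSMI2 replicate 2 the balance turned, with 2 higher, 3 lower and a median of 0.017, and without siOGT2 replicate 2, 4 were higher and 3 lower. HMGCS1 stood at 223 and 232 CPM in OSMI2, 158 and 136 in siOGT1, 190.0 and 169 in siOGT2, with 172 and 155 in Scr, and the OSMI2 libraries were highest. HMGCS1 (0.49, SE 0.082, adjusted p = 4.45e-04) and INSIG1 (1.05, SE 0.24) were higher. ACAT2, an acetoacetyl-CoA thiolase gene, was at 59.8 and 56.6 CPM in OSMI2, 87.4 and 91.9 in siOGT1, 92 and 101 in siOGT2, with 70.9 and 75.1 in Scr (-0.68, SE 0.070, adjusted p = 4.17e-06), and it overlaps TCP1, which fell too. PMVK, a kinase gene of the same pathway, was lower too (-0.47, SE 0.076, adjusted p = 3.03e-04).

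Genes that process small RNAs were lower in OSMI2 in part. DICER1 cuts precursors into small RNAs, and Argonaute proteins with their TNRC6 partners carry out silencing. Of 13 genes, 4 were lower and 0 higher, against 9.7% lower over all tested genes. DICER1 stood at 97.4 and 91.6 CPM in OSMI2, 212 and 209.9 in siOGT1, 119.9 and 125 in siOGT2, with 106 and 105 in Scr (-0.77, SE 0.093, adjusted p = 1.95e-05), with siOGT1 far above the other arms and above siOGT2 (adjusted p = 1.78e-04). It shares exons with DICER1-AS1. TNRC6A was at 125 and 120.3 CPM in OSMI2, 191 and 182 in siOGT1 and 199.7 and 204 in siOGT2, with 151 and 140.3 in Scr (-0.66, SE 0.088, adjusted p = 4.69e-05). AGO1 (-0.33, SE 0.068, adjusted p = 0.00227) and AGO2 (-0.41, SE 0.097, adjusted p = 0.0064) were lower by less, and both calls were lost without OSMI2 replicate 2 (adjusted p = 0.0841 and 0.0949), that of AGO2 also without replicate 1 (0.0548). Whether the OSMI2 cells were transfected with any siRNA is not given, so transfection and OGT status cannot be told apart for this group.

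Chromatin factors known to bind or carry the modification of OGT were lower by small amounts where they passed. Of 23, 6 were lower and 0 higher, against 9.7% lower over all tested genes, with a median of -0.15. The largest difference was that of TET3, a DNA demethylase gene (-0.35, SE 0.072, adjusted p = 0.00233). It was at 53.3 and 53.2 CPM in OSMI2, 77.7 and 71.6 in siOGT1, 62.3 and 60.6 in siOGT2, with 58.5 and 57.6 in Scr. HCFC1, a main partner and substrate, had a value of -0.26 (SE 0.093, adjusted p = 0.0623). With library size only, 1 member was higher and 2 were lower, and with 1 library left out 1 to 3 were lower.

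RNA processing genes moved in both directions. Of 48 core spliceosome genes, 14 were lower and 3 higher, against 9.7% and 6.9% over all tested genes. The lower members included SNRPF (-0.43, SE 0.068, adjusted p = 2.82e-04), SNRPA1 (-0.35, SE 0.069, adjusted p = 0.00141) and the helicase genes DHX15 (-0.35, SE 0.059, adjusted p = 4.83e-04) and DDX46 (-0.35, SE 0.061, adjusted p = 6.48e-04). Of 46 SR protein, hnRNP and CLK kinase genes, 3 were lower and 7 higher, and the classes were not tested against each other. Without OSMI2 replicate 1, 2 of these were higher and 2 lower, without OSMI2 replicate 2, 2 and 1, and without replicate 2 of either siRNA, 3 and 2. Among the lower was HNRNPA2B1, at 1618 and 1601 CPM in OSMI2, 2196 and 2284 in siOGT1, 2046 and 2006 in siOGT2, with 2282 and 2489 in Scr (-0.40, SE 0.070, adjusted p = 5.40e-04). It overlaps CBX3. Of the core genes, 11 were lower and 0 higher without OSMI2 replicate 1, and 5 and 0 without replicate 2. Of 77 cytosolic ribosomal protein genes, 7 were higher and 3 lower with a median of -0.015, near the background, with 1 higher and 0 lower without OSMI2 replicate 1 and 3 and 1 without replicate 2. RPS16 had the smallest adjusted p of these (0.34, SE 0.060, adjusted p = 6.41e-04). Host genes of small nucleolar RNAs were higher in 5 of 22 and lower in 1. SNHG29 stood at 593 and 585 CPM in OSMI2, 422 and 367 in siOGT1, 422 and 410.2 in siOGT2, with 598 and 552 in Scr (0.54, SE 0.074, adjusted p = 6.52e-05), with the siRNAs low and OSMI2 level with Scr. SNHG16 went the other way (-0.42, SE 0.066, adjusted p = 2.26e-04).

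Genes of oxidative phosphorylation were lower where they passed the test, while those of the G1/S transition turned with the OSMI2 library used. Of 47 nuclear oxidative phosphorylation subunit genes, 11 were lower (against 9.7% over all tested genes) and 0 higher, with a median of -0.17. They included the complex I genes NDUFS3 (-0.46, SE 0.078, adjusted p = 5.04e-04) and NDUFB10 (-0.33, SE 0.064, adjusted p = 0.00151) and the succinate dehydrogenase gene SDHB (49.9 and 48.7 CPM in OSMI2, 64.9 and 67.6 in siOGT1, 60.7 and 67.1 in siOGT2, with 61.5 and 66.1 in Scr, -0.40, SE 0.071, adjusted p = 6.78e-04). Without OSMI2 replicate 2, 4 were lower. Of 33 genes of the G1/S transition and DNA replication, 7 were lower (against 9.7% over all tested genes) and 0 higher. The list median was -0.21 against siOGT1 and 0.018 against siOGT2. CDC25A, a phosphatase gene that activates cyclin-dependent kinases, was at 31.2 and 24.8 CPM in OSMI2, 49.1 and 49.4 in siOGT1, 38.2 and 37.7 in siOGT2, with 39.6 and 46.1 in Scr (-0.63, SE 0.098, adjusted p = 2.25e-04). TK1 (-0.39, SE 0.069, adjusted p = 5.89e-04) was also lower. Without OSMI2 replicate 1, 12 members were lower and 0 higher with a median of -0.29, and without replicate 2, 2 were lower and 2 higher with a median of 0.055, so the 2 OSMI2 libraries did not place this list on the same side of the siRNAs. The glycolytic enzyme genes LDHA (-0.43, SE 0.082, adjusted p = 0.00118), ALDOA (-0.28, SE 0.060) and PGK1 (-0.27, SE 0.077), on the hypoxia list, were lower, while VEGFA, an angiogenic factor gene, was at 181 and 169 CPM in OSMI2 against 107 and 97.1 in siOGT1 and 125 and 104 in siOGT2, with 137 and 124 in Scr (0.70, SE 0.076, adjusted p = 6.28e-06). Of the 31 genes of that list, 5 were higher and 9 lower, 1 and 6 without OSMI2 replicate 1, and 2 and 2 without replicate 2. ALDOA lost its call without OSMI2 replicate 2 (adjusted p = 0.0697).

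**Figure D4:**
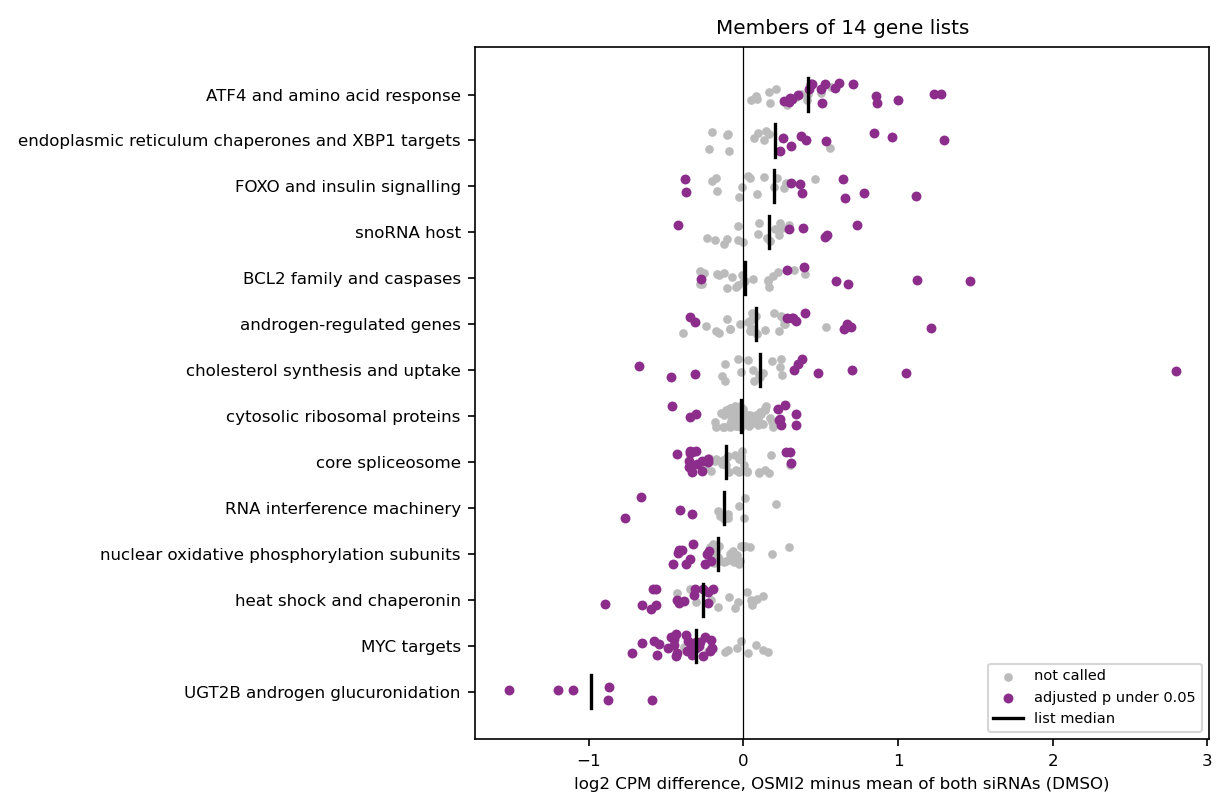
Log2 CPM difference of OSMI2 from the mean of both siRNAs (horizontal axis) for the tested members of 14 gene lists. Purple points passed the test, grey points did not, and black bars are list medians. Among these the ATF4 and UGT2B lists have the highest and lowest medians, 0.42 and -0.99, and ribosomal protein genes are centred at -0.015.

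Cell death genes that passed the test were mostly higher. Of 29 genes of the BCL2 family and caspases, 6 were higher and 1 lower, with a median of 0.010, against 6.9% higher and 9.7% lower over all tested genes, and 22 did not pass. BBC3, which encodes the pro-apoptotic protein PUMA, stood at 10.5 and 8.53 CPM in OSMI2, 4.16 and 3.46 in siOGT1, 5.54 and 4.45 in siOGT2, with 6.23 and 4.57 in Scr (1.12, SE 0.15, adjusted p = 6.23e-05). BMF, another pro-apoptotic gene, was at 18.8 and 19.7 CPM in OSMI2, 11.1 and 10.5 in siOGT1, 13.8 and 13 in siOGT2, with 16.9 and 15.2 in Scr (0.68, SE 0.12, adjusted p = 8.22e-04). FOXO and insulin signalling genes were higher in 7 of 23 and lower in 2. KLHL24 (0.78, SE 0.099, adjusted p = 2.99e-05) and CCNG2 are known to rise when FOXO factors are active, and CCNG2 stood at 160.3 and 189 CPM in OSMI2, 62.5 and 60.9 in siOGT1, 105 and 105 in siOGT2, with 154 and 163 in Scr. With 1 library left out, 2 to 5 cell death genes were higher, 2 without OSMI2 replicate 1, and 3 FOXO genes were higher without either OSMI2 library.

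Oxidative stress and interferon genes held a few large differences at low levels. The aldo-keto reductase genes AKR1C2 (2.3 and 2.72 CPM in OSMI2, 0.45 and 0.323 in siOGT1, 0.561 and 0.837 in siOGT2, with 2.12 and 2.76 in Scr, 2.25, SE 0.25, adjusted p = 7.54e-06) and AKR1C1 (1.88, SE 0.31, adjusted p = 4.14e-04) were higher. They are near-identical copies, so their split is uncertain. The NRF2 targets NQO1 (0.044, SE 0.077) and GCLM (0.15, SE 0.10) did not pass, and of 26 genes on this list 8 were higher and 3 lower, 3 and 2 without OSMI2 replicate 1, and 5 and 0 without replicate 2. Of 39 interferon-stimulated genes, 7 were higher and 1 lower, 4 and 0 without OSMI2 replicate 1, and 3 and 0 without replicate 2 of either OSMI2 or siOGT2. IFI44 stood at 10.6 and 10.3 CPM in OSMI2, 6.07 and 5.88 in siOGT1, 6.47 and 7.11 in siOGT2, with 10.8 and 11.9 in Scr (0.71, SE 0.12, adjusted p = 3.31e-04), and OAS3, a sensor of double-stranded RNA, had a value of 0.39 (SE 0.071, adjusted p = 7.95e-04). In both genes the siRNA libraries were lowest, and OSMI2 was close to Scr. Autophagy and lysosome genes were mixed, 6 higher and 10 lower of 35, 3 and 6 without OSMI2 replicate 1, and 2 and 1 without replicate 2. MAP1LC3B, which encodes a protein of the autophagosome membrane and overlaps FBXO31, was at 68 and 59.2 CPM in OSMI2, 27.6 and 26.3 in siOGT1, 54.2 and 52.2 in siOGT2, with 60.3 and 53.7 in Scr (0.75, SE 0.085, adjusted p = 8.08e-06), low in siOGT1 only.

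Mitotic, repair and histone genes held calls in both directions. For comparison, 6.9% of all tested genes were higher and 9.7% lower. Of 32 G2/M genes 1 was higher and 6 were lower, CDC20, an activator of the anaphase-promoting complex, with the smallest adjusted p (-0.35, SE 0.071, adjusted p = 0.00173). TOP2A, the topoisomerase gene, was the 1 higher member (0.35, SE 0.078, adjusted p = 0.00455), a call lost without OSMI2 replicate 1 (adjusted p = 0.0989). Of 31 DNA repair genes 1 was higher, the break sensor NBN (0.42, SE 0.078, adjusted p = 9.96e-04), and 4 were lower, led by the recombination gene RAD51B (-0.61, SE 0.12, adjusted p = 0.00144). Of 17 histone genes 5 were higher, among them H2BC21 (0.85, SE 0.14, adjusted p = 5.89e-04), and 1 was lower, with a median of 0.28. With 1 library left out, 1 to 5 G2/M genes and 1 to 3 repair genes were lower and 1 to 5 histone genes higher, each at 1 without OSMI2 replicate 2, where the histone median was 0.067. Among 7 metallothionein and zinc genes 3 were lower, and without OSMI2 replicate 2 there was 1. They included their transcription factor MTF1, at 47.3 and 44.6 CPM in OSMI2, 69.7 and 78.2 in siOGT1, 57.1 and 64.1 in siOGT2, with 50.4 and 54.1 in Scr (-0.54, SE 0.096, adjusted p = 6.48e-04). For MTF1 the Scr libraries lay between OSMI2 and the siRNAs. Fatty acid genes gave 1 higher of 15, the elongase gene ELOVL5 (0.44, SE 0.074, adjusted p = 4.43e-04), and 2 lower, including the carboxylase gene ACACA (-0.36, SE 0.068, adjusted p = 0.00108). Elongation factor genes of the P-TEFb list, which the CDK inhibitor of the other libraries bears on, gave 3 higher and 2 lower of 35, near the 6.9% and 9.7% over all tested genes, and 0 and 1 without OSMI2 replicate 2. LEO1, a subunit of the PAF1 complex that overlaps TMOD3, had the smallest adjusted p (-0.38, SE 0.070, adjusted p = 8.80e-04).

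Among stromal markers, FN1, the fibronectin gene, stood at 567 and 515 CPM in OSMI2, 277 and 304 in siOGT1, 349 and 424 in siOGT2, with 469.7 and 552 in Scr (0.69, SE 0.13, adjusted p = 0.00268). COL1A1 was higher as well (0.89, SE 0.14, adjusted p = 2.17e-04), while COL1A2, its partner chain, was at or near 0. Of 8 tested stromal markers, 3 were higher in OSMI2 and 0 lower, against 6.9% higher over all tested genes. The other 5, VIM and COL3A1 among them, did not pass. The differences of the 8 ranged from -0.48 to 1.63, with a median of 0.18. The 1.63 was that of LUM, near the floor at 0.38 and 0.32 CPM in OSMI2. LUM was at 0.037 and 0.065 CPM in siOGT1 and overlapped OSMI2 in siOGT2, at 0.37 and 0.15. Its call was lost with the siRNAs averaged by replicate number (limma-trend, adjusted p = 0.0655). Of 6 tested basal markers, 3 were higher and 0 lower: LAMB3, KRT14 and ITGA6. KRT14 was near the floor, at 0.71 and 0.92 CPM in OSMI2, 0.48 and 0.34 in siOGT1 and 0.29 and 0.42 in siOGT2. The ITGA6 difference was small (0.22), and its call was lost with the siRNAs averaged by replicate number (limma-trend, adjusted p = 0.101).

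Of long non-coding genes, 192 of 4838 tested (3.97%) were higher and 185 (3.82%) lower, against 9.37% and 14.04% of protein-coding genes. LINC01133 stood at 29 and 24.8 CPM in OSMI2, 11.8 and 10.8 in siOGT1, 10.5 and 10.5 in siOGT2, with 15.2 and 15.4 in Scr (1.3, SE 0.10, adjusted p = 2.20e-07). RUSC1-AS1 (1.03, SE 0.21, adjusted p = 0.00509) and LINC01089 (1.0, SE 0.14, adjusted p = 8.23e-05) were higher, and both overlap neighbouring genes. Without OSMI2 replicate 2 the adjusted p of RUSC1-AS1 was 0.0934. LINC00161 was at 9.86 and 13.7 CPM in OSMI2, 23.9 and 29.7 in siOGT1, 23.9 and 27.1 in siOGT2, with 16.4 and 24.1 in Scr (-1.15, SE 0.16, adjusted p = 1.07e-04). MAN1B1-DT (-1.01, SE 0.17, adjusted p = 6.41e-04) and MNX1-AS1 (-0.76, SE 0.14, adjusted p = 0.00113) were lower in OSMI2 too.

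The same contrast was available in other libraries, those treated with AT7519. There 7408 genes (31.1%) differed between OSMI2 and the siRNAs, and the difference itself changed between agents in 489 (2.05%). Of the 149 named genes reported here and called under DMSO, 141 had the same sign with AT7519 and 129 were also called. Apart from OGT and OGA, these genes were chosen by their DMSO values, and the same siRNAs and inhibitor were used. The counts are therefore no independent test, and the share of same signs over all genes is not given here. Across genes with a mean log2 CPM of 3 or more, the differences under the 2 agents correlated at 0.76 (Pearson r). OGT differed by 4.48 (SE 0.11) with AT7519, UGT2B15 by -1.43, MAP4K1 by -1.57, SLC7A11 by 1.2, HSPB1 by -0.91, UTP20 by -0.87 and DICER1 by -1.15. HMGCS1 turned from 0.49 under DMSO to -0.24 with AT7519. CCNG2 went from 1.12 to 0.21 (adjusted p = 0.164 with AT7519) and DNAJB9 from 1.3 to 0.44. CYP1A1, the main target of the aryl hydrocarbon receptor, had 1.97 (SE 0.40) under DMSO at 3.81 and 3.31 CPM in OSMI2 and 0.0038 (SE 0.47) with AT7519, and its change between agents did not pass (adjusted p = 0.166). Its DMSO call was lost with the siRNAs averaged by replicate number (0.315).

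**Figure D5:**
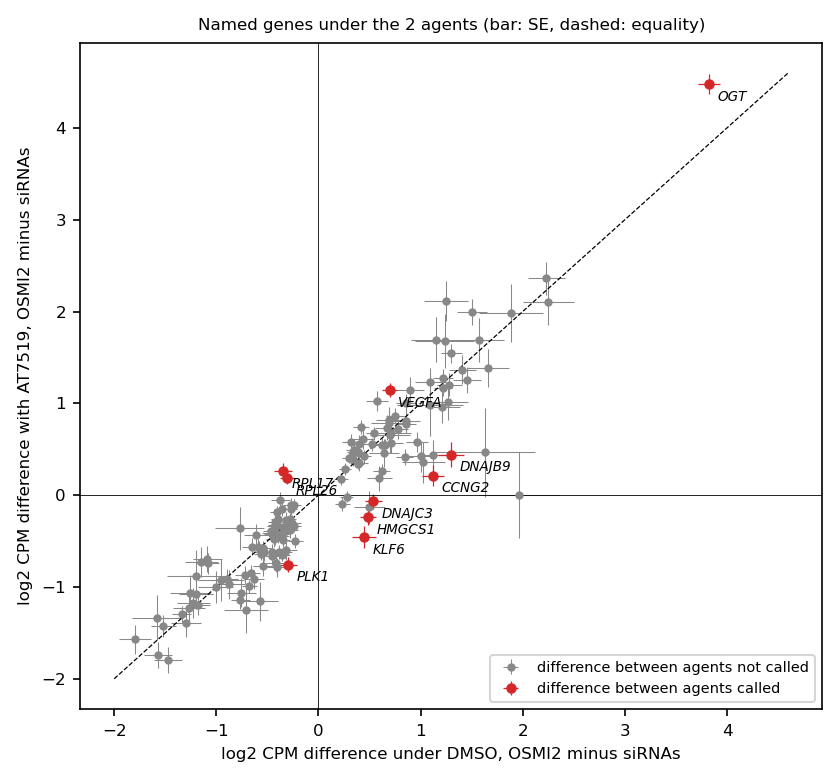
Log2 CPM difference of OSMI2 from both siRNAs under DMSO (horizontal axis) and with AT7519 (vertical axis) for the 149 named genes called under DMSO, with bars of 1 SE and a dashed line of equality. The 2 axes rest on different libraries, and the genes other than OGT and OGA were chosen by their values under DMSO. Red points are genes whose difference changed between agents, and 141 of the 149 genes have the same sign on both axes.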

How the data were processed

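RNA of 16 LNCaP libraries, 2 in each of 8 groups, was sequenced from a strand-specific TruSeq kit, per the labels. The raw counts per Ensembl gene are those the authors deposited; the submitters' processing notes name STAR, HTSeq, DESeq2 and hg19/GRCh37, while their versions and the strand setting of the counting were not given in the sources used here. A normalised table that the authors deposited was left aside, and no per-sample column of the count table was left out. Of 60252 gene IDs, 55528 were matched to a symbol by version-free ID, and gene types and overlaps came from GENCODE v29 models (55951 IDs).

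The counts were fitted with edgeR 4.0.16 in R 4.3.3 (TMM scaling, filterByExpr, robust quasi-likelihood fit, 1 mean per group, no replicate block, all 16 libraries sharing 1 estimate of the spread). The contrast was OSMI2 minus the mean of siOGT1 and siOGT2 on the log2 scale. Calls had a Benjamini-Hochberg adjusted p under 0.05, and SE is the log2 difference divided by the square root of F. The scripts were tested on simulated data. Alternatives used other scalings and filters, DESeq2 1.42.0, limma 3.58.1, fewer libraries, replicate blocks, a minimum fold of 1.5 and each library left out. Overlaps used GenomicRanges 1.54.1.

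Named genes were OGT, OGA, and called protein-coding genes of mean log2 CPM of 3 or more with 1 direction against each siRNA and no overlap, the 15 largest rises and 15 largest falls. The rule added 3 long non-coding genes each way, up to 4 members per list by adjusted p, and 5 genes per class of placement against Scr. Other list members given with values were chosen after their values were seen. The members and lists were chosen with earlier results of these data known. Lists are described by counts and medians, without a set test. Some named genes are not reported here.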

Additional observations from a re-analysis of the deposited data

Results flagged for a closer look

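The difference between OSMI2 and the siRNAs changed between DMSO and AT7519 in 10 named genes reported here, by a test of the change itself (edgeR quasi-likelihood test, adjusted over all genes, against 2.05% of all tested genes). The values here are the log2 difference with AT7519 minus that under DMSO. HMGCS1, a cholesterol synthesis gene, changed by -0.726 (adjusted p = 0.00244) and turned from higher in OSMI2 to lower. The co-chaperone genes DNAJB9 and DNAJC3 changed by -0.856 (0.023) and -0.604 (0.00933). CCNG2 changed by -0.907 (0.00449), the transcription factor gene KLF6 by -0.904 (0.00568) and the mitotic kinase gene PLK1 by -0.462 (0.0399). KLF6 turned from 0.45 under DMSO to -0.46 with AT7519, and its call under DMSO was lost without OSMI2 replicate 1 (0.0627) or replicate 2 (0.13). That of PLK1 was lost without OSMI2 replicate 2 (0.349), without siOGT2 replicate 1 (0.0606) and with the siRNAs averaged by replicate number (0.0527).

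The other 4 genes changed upward. OGT changed by 0.655 (adjusted p = 0.04), with 422 and 408 CPM in OSMI2, 11 and 11 in siOGT1 and 29.3 and 33.8 in siOGT2 under AT7519. VEGFA changed by 0.445 (0.0368). The ribosomal protein genes RPL17 and RPL26 changed by 0.609 (0.00973) and 0.49 (0.0106), from -0.35 and -0.30 under DMSO to 0.26 and 0.19 with AT7519. The DMSO call of RPL17 was lost without OSMI2 replicate 1 (0.107) or replicate 2 (0.0728), and that of RPL26 without replicate 1 (0.0908). Both overlap other gene models, so their counts are uncertain.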

How the results depend on the processing

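The count of 3955 genes between OSMI2 and both siRNAs was 3932 with RLE scaling, 4626 with DESeq2, 4405 with limma voom, 4090 with no filter on low counts, 3358 for genes of mean log2 CPM 3 and above, 5753 with DMSO libraries only and 5699 with the compared groups only. It was 82 against a minimum fold of 1.5. With each library left out it ranged from 1405 to 3486. Against siOGT1 the count was 160 with the minimum fold and 1630 to 2901 with a library left out. Against siOGT2 it was 2513 with DESeq2, 3170 with DMSO libraries only, 3247 with the compared groups only, 43 with the minimum fold and 259 to 998 with a library left out. Between the siRNAs it was 781 with DESeq2, 697 without a filter, 901 with DMSO libraries only, 877 with the compared groups only, 13 with the minimum fold and 132 to 197 with a library left out. The causes were not tested; the minimum fold asks for larger changes by construction.

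Replicate numbers did not pair OSMI2 with the other DMSO libraries: differences between replicates correlated at 0.051 to 0.097 with OSMI2. The replicate differences of OSMI2 under DMSO and of OSMI2 with AT7519 correlated at 0.42. Any separate handling of the OSMI2 libraries cannot be told apart from the contrast. Among Scr, siOGT1 and siOGT2 under DMSO the replicate differences correlated at 0.597 to 0.634. Same-numbered siRNA libraries are therefore not independent, though the reported test treats them so. With the siRNAs averaged within a replicate number (limma-trend, chosen after seeing the data) the main count fell to 2661, and 19 of the 154 named genes lost their call. With a replicate block the main count was 4723 and the siRNAs differed in 678 genes. With the block within agent the counts were 5992, 6265 against siOGT1, 3643 against siOGT2 and 1300 between the siRNAs. A block by arm and agent, chosen after seeing the data, gave 7928. Of the 154 named genes, 28 lost their call without OSMI2 replicate 1 and 43 without replicate 2. The log2 difference of CD68, 0.49 and not called, was 0.93 without OSMI2 replicate 1 and -0.18 without replicate 2.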
